A study of Sus scrofa domesticus with 4 samples.

Results

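The genes of interest were PTGS2, PTGES, PTGDS and ALOX5AP, which encode enzymes and a helper protein of prostaglandin and leukotriene synthesis. They were measured in primary anterior pituitary cells of the pig, cultured with or without adiponectin, a hormone of adipose tissue. All probes of these 4 genes were taken by RefSeq accession, which gave 8 of the 43603 probes of the array: 2 of PTGS2, 2 of PTGES, 1 of PTGDS and 3 of ALOX5AP. The genes were selected on their treated over control ratios on these same arrays, so those ratios are described here and not tested.

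Pituitaries were taken from 4 gilts, mature females of a Large White × Polish Landrace cross at 7 to 8 months of age. By the growth protocol they were mid-luteal, days 10 to 12 of the cycle. Another label gives these days as a period of pregnancy instead, and the protocol's wording was kept. Dispersed cells of the anterior lobe attached for 48 h in medium with serum and were then kept for 24 h without serum and with bacitracin. The treated cultures received recombinant human adiponectin at 10 µg/ml and the control cultures none. Each of 4 arrays carried treated and control RNA in different dyes. The channel labels put treated RNA in the red dye Cy5 on arrays 1 and 3 and in the green dye Cy3 on arrays 2 and 4. No label ties a gilt to an array, so p-values measure the spread between these 4 arrays, which may be technical in part.

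Prostaglandins and leukotrienes are short-lived lipid mediators made from arachidonic acid, which phospholipases free from membranes. Cyclooxygenases turn it into prostaglandin H2, and terminal synthases turn that into single prostaglandins. Leukotrienes arise on another branch, in which 5-lipoxygenase acts with the membrane protein encoded by ALOX5AP. In the pituitary, prostaglandins have been studied as local modulators of hormone release.

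Of all 8 probes, each was well above background in both channels on 4 of 4 arrays, with no spot left out and none saturated. Of the 10 listed genes of hormone cells, 9 had a tested probe, among them GH1, PRL, POMC, TSHB, LHB and FSHB. The remaining one, CGA, was well above background on 4 of 4 arrays but had its spots left out for an uneven local background. Of the lymphocyte markers, CD3E and LCK were tested, and CD3D, CD2, CD4 and CD8A were too dim. In the fit over all 25912 tested probes, 0 probes (0%) had an adjusted p under 0.05 (limma with Benjamini-Hochberg adjustment). An unadjusted p under 0.05 (limma) was found for 717, fewer than the share of 0.05 given on average when no probe differs. RNA came from whole cultures, so fewer cells of a type and less RNA per cell cannot be told apart.

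PTGS2 encodes the inducible cyclooxygenase COX-2, which cytokines and other stimuli switch on in many cell types. Its brighter probe, probe 1, had normalised intensities in treated cells of 11855, 12683, 10008 and 6678 on arrays 1 to 4. In control cells it had 10274, 16234, 10940 and 10229. Treated cells were above their control on array 1 and below it on the other 3 arrays, and the values of treated and control cells overlapped. The log2 ratios of treated over control were 0.21, -0.36, -0.13 and -0.62. Their spread (SD 0.35, n = 4) includes the effect of the dye. It was larger than the fitted ratio of -0.22 ± 0.08 (SE, n = 4 arrays), a 0.857-fold level. The residual SD about the fitted dye and treatment terms was 0.21. A lower fitted ratio was found for 0.641% of tested probes. Without array 3 the fitted ratio was -0.14.

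Probe 2 of PTGS2 had intensities of 7016, 8987, 5571 and 4433 in treated cells and of 7331, 9115, 7984 and 4749 in control cells. Its log2 ratios were -0.06, -0.02, -0.52 and -0.10, below 0 on each array. The fitted ratio was -0.18 ± 0.08 (SE, n = 4), close to that of the brighter probe. It was -0.06 without array 3 and -0.29 without array 1. Across arrays the probes did not follow each other. Where treated RNA was red the mean log2 ratio was 0.04 for the brighter probe and -0.29 for the other, and where it was green the means were -0.49 and -0.06.

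PTGES encodes the inducible, membrane-bound prostaglandin E synthase, which acts on the product of COX-2 and belongs, like the ALOX5AP protein, to the MAPEG family of membrane proteins. Its brighter probe had intensities of 22854, 23040, 31723 and 22040.2 in treated cells. In control cells the intensities were 20731, 24485, 29029 and 22631. The log2 ratios were 0.14, -0.09, 0.13 and -0.04, above 0 where treated RNA was red and below 0 where it was green. With the dye term in the fit the ratio was 0.04 ± 0.06 (SE, n = 4), a 1.03-fold level. The second probe had log2 ratios of 0.15, -0.03, -0.02 and 0.06 and a fitted ratio of 0.04 ± 0.07 (SE, n = 4). That ratio was -0.00076 without array 1 and 0.08 without array 3. Its intensities ran from 10311 to 15723 in treated and from 9388 to 15924 in control cells. The fitted ratios of the probes differed by 0.006, whereas the median difference over 509 genes with 2 tested probes was 0.05. Of all tested probes, 58.9% had a fitted ratio farther from 0 than the brighter PTGES probe.

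PTGDS encodes lipocalin-type prostaglandin D synthase, which makes prostaglandin D2 and also carries small lipophilic molecules. Its only probe had intensities of 506, 709, 1365 and 1476 in treated cells and of 402, 621, 1286 and 1473 in control cells. Treated cells were above their own control on each array, by log2 ratios of 0.33, 0.19, 0.09 and 0.003. The fitted ratio was 0.15 ± 0.07 (SE, n = 4), a 1.11-fold level, and 1.66% of tested probes had a higher one. Without array 1, where treated and control cells lay farthest apart, it was 0.09. The spread of its array ratios (SD 0.14, n = 4) was about as large as the fitted ratio. Treated and control values overlapped widely, because the level itself differed between arrays. The control level differed 3.67-fold between array 1 and array 4, a range of 1.87 on the log2 scale. Of the probes with 4 values, 99.4% had a smaller range of their control level, and the median range was 0.41. In log2 intensity the mean was 9.70 ± 0.89 in control and 9.85 ± 0.75 in treated cells (SD, n = 4).

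ALOX5AP encodes the 5-lipoxygenase activating protein, which presents arachidonic acid to 5-lipoxygenase and is best known in myeloid cells. The brightest of its 3 probes had intensities of 529, 674, 834 and 801 in treated cells. In control cells they were 417, 543, 765 and 732. Treated cells were above their own control on all 4 arrays, with log2 ratios of 0.34, 0.31, 0.12 and 0.13 (SD 0.12). The fitted ratio was 0.23 ± 0.07 (SE, n = 4), a 1.17-fold level, and 0.370% of tested probes had a higher one.

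Its second probe did not show this. The intensities were 325, 275, 442 and 342 in treated and 277, 294, 379 and 367 in control cells. The log2 ratios of 0.23, -0.09, 0.22 and -0.10 were above 0 with treated RNA in red and below 0 with treated RNA in green. For the third probe the order was opposite, with -0.04, 0.10, -0.04 and 0.07. Its intensities ran from 158 to 213 in treated and from 156 to 219 in control cells. The fitted ratios were 0.06 ± 0.06 and 0.02 ± 0.06 (SE, n = 4), so the value of the brightest probe was not shared by the other 2. The 3 fitted ratios spanned 0.21, and 94.6% of the 205 genes with 3 tested probes spanned less. Averaged over its probes, ALOX5AP had a fitted ratio of 0.10, and on arrays 1 to 4 the averages were 0.18, 0.11, 0.10 and 0.03. Macrophage markers stood at a median ratio of 0.002, with 3 of 5 tested genes above 0. Their summed intensity ran from 1169 to 1520 in treated and from 1147 to 1493 in control cells. CD14, a receptor of bacterial lipopolysaccharide, had 0.01, TYROBP, an adaptor of myeloid receptors, 0.01 and AIF1, a marker of macrophages and microglia, -0.04. CD163 was not tested, and CD68, CSF1R, MSR1 and MRC1 had no probe matched by accession.

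**Figure D1:**
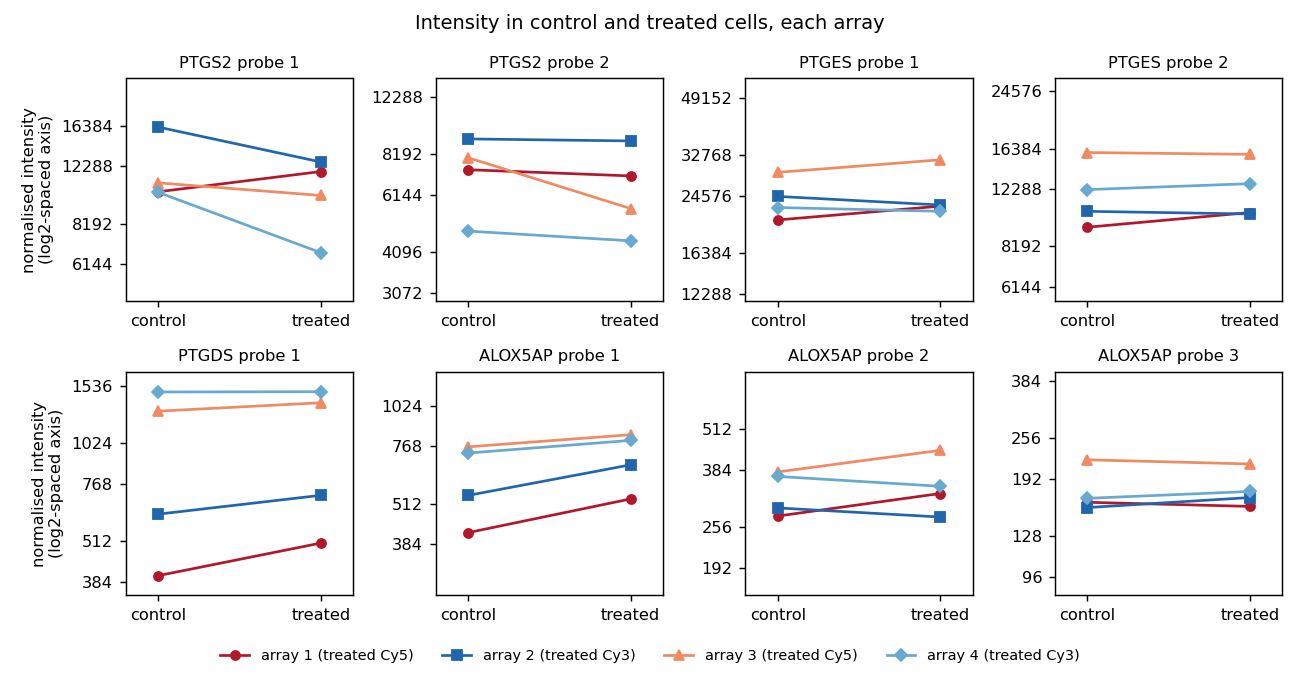
Normalised intensity (log2-spaced axis, with the offset of 50 included) of each of the 8 probes in control and treated cells, with a line for each of 4 arrays and the dye of the treated RNA in the key. The lines of PTGDS and of ALOX5AP probe 1 slope up or stay level on all 4 arrays, and the lines of PTGDS lie far apart, from 402 to 1473 in control cells.

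Fitted ratios were below 0 for both PTGS2 probes and above 0 for the other 6, and over all tested probes 49.3% were below 0 and 50.7% above it. Probes that had the same sign on 4 of 4 arrays were PTGDS and the brightest ALOX5AP probe (higher) and the second PTGS2 probe (lower). Over the probes with 4 values, 3.01% had a higher value on every array and 2.93% a lower one. The other probes of ALOX5AP and PTGS2 and both probes of PTGES had values on either side of 0. By the root mean square difference of the 4 array ratios of the brightest probes, PTGDS and ALOX5AP were nearest to each other (0.09), and PTGS2 and ALOX5AP were farthest apart (0.52). These differences include the effect of the dye.

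**Figure D2:**
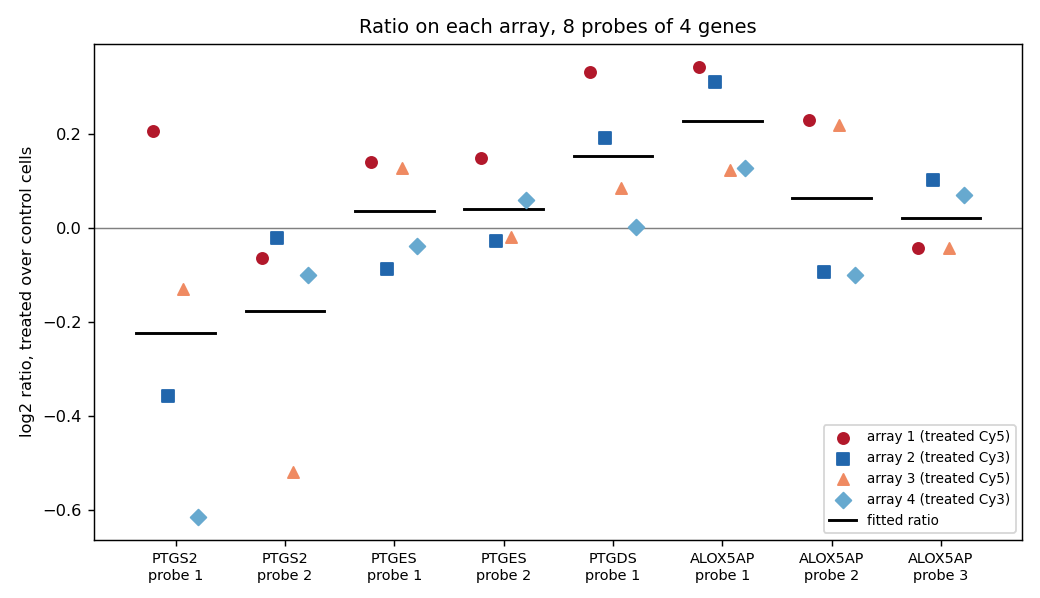
Log2 ratio of treated over control cells for each probe, with a symbol for each of 4 arrays and a black bar at the fitted ratio with a dye term. PTGS2 probe 1 ranges from -0.62 to 0.21, and probes 2 and 3 of ALOX5AP split by the dye of the treated RNA.

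The difference between the PTGS2 probes was followed up on the array itself. After loess, the median red over green log2 ratio of tested probes ran from 0.09 to 0.13 over the 4 arrays in rows 1 to 106. In rows 427 to 532 it ran from -0.20 to -0.13. Probe 2 of PTGS2 lies in row 520 of 532 and the brighter one in row 290. A smooth surface over rows and columns was then taken off each array, a step chosen after the gradient was seen. With it, the second probe had log2 ratios of 0.06, -0.18, -0.35 and -0.33 and a fitted ratio of -0.20 ± 0.08 (SE, n = 4), with 1 array above 0. The brighter probe had 0.21, -0.36, -0.12 and -0.64, with a fitted ratio of -0.23 ± 0.08 (SE, n = 4). The root mean square difference between the probes went from 0.39 to 0.22.

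In the deposited series matrix, built from the scanner software's own processed signals, the PTGS2 probes differed by a root mean square of only 0.02. There the brighter probe had 0.20, -0.32, -0.16 and -0.59, and the second probe had 0.20, -0.32, -0.13 and -0.56. Both were thus above 0 on array 1 and lowest on array 4. For the other genes the matrix did not bring probes together in this way. The PTGES probes differed by 0.09 after loess and by 0.11 in the matrix. The brightest ALOX5AP probe differed from probes 2 and 3 by 0.24 and 0.24 after loess, and by 0.41 and 0.22 in the matrix. Probes 2 and 3 differed by 0.23 and 0.35. The smooth over position did not bring ALOX5AP probes together either, with 0.35, 0.26 and 0.23 for the same pairs. The brightest ALOX5AP probe, in row 57, had 0.25, 0.44, -0.02 and 0.27 after the smooth, no longer above 0 on every array. Its fitted ratio was then 0.24 ± 0.07 (SE, n = 4), and those of the other probes were 0.05 and 0.006. PTGDS, in row 122, had 0.23, 0.24, 0.03 and 0.08 and a fitted ratio of 0.15 ± 0.07 (SE, n = 4). For PTGES the smooth gave 0.03 and 0.04.

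**Figure D3:**
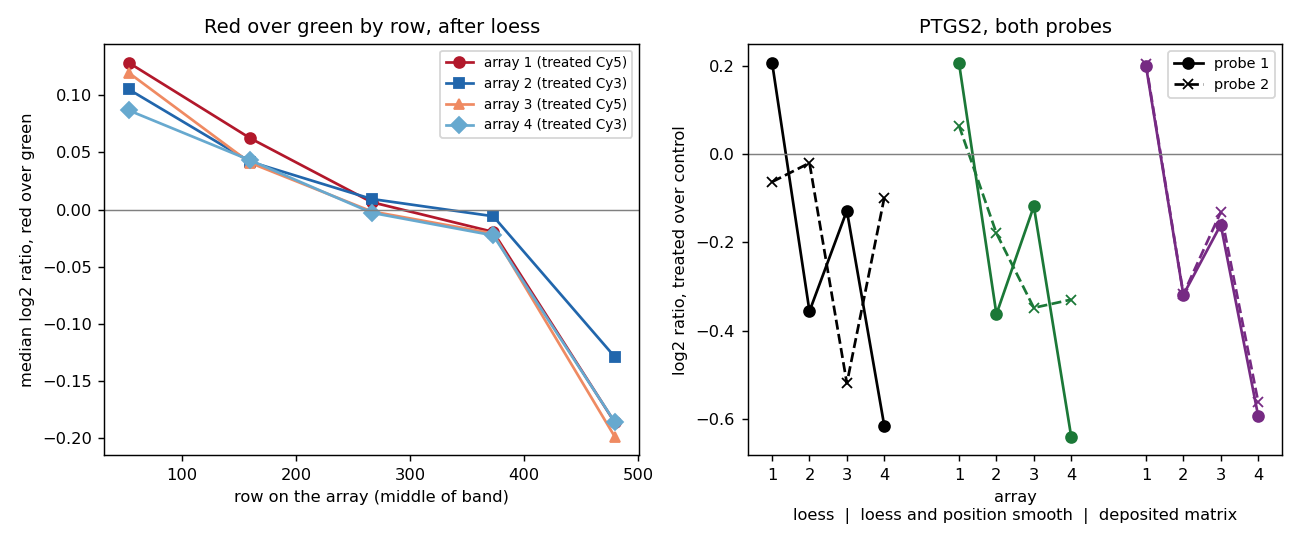
Left, median red over green log2 ratio after loess in 5 bands of rows on each of 4 arrays. Right, log2 ratio of treated over control on arrays 1 to 4 for both PTGS2 probes, after loess, after loess and a smooth over position, and in the deposited matrix. The bands go from between 0.09 and 0.13 down to between -0.20 and -0.13, and the probes lie closest in the deposited matrix.

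The rest of the pathway was compared by the same fit. Of 60 further genes of prostanoid and leukotriene synthesis, transport and response, 23 had a probe matched by accession and 17 were tested. None of the 17 passed the threshold in either direction (limma, adjusted p), none had an unadjusted p under 0.05, and none had the same sign on 4 of 4 arrays. Their fitted ratios were above 0 for 11 and below 0 for 6, with a median of 0.02 beside a median of 0.006 over the 1935 other named genes tested. Each of the 17 intervals at 95% included 0, with half-widths from 0.14 (SLCO2A1 and PTGES3) to 0.24 (MGST1).

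Among genes of substrate supply, ANXA1, whose product annexin A1 restrains phospholipase A2, had the lowest ratio of the 17 further genes, -0.12 (95% interval -0.34 to 0.10). All 8 of its tested probes were below 0, from -0.23 to -0.03. Without array 2 its ratio was -0.26. In that fit of 3 arrays, array 4, where ANXA1 had its lowest ratio (-0.48), alone had treated RNA in green. ACSL4, which loads arachidonic acid onto coenzyme A, had -0.04, with 3 of its 6 probes above 0. MGLL, which frees arachidonic acid from a monoacylglycerol, had 0.05. The constitutive cyclooxygenase PTGS1 had 0.01 (95% interval -0.15 to 0.17), against the -0.22 of the inducible form. Between these genes no difference was tested.

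The other prostaglandin E synthases, PTGES2 and PTGES3, had -0.04 and 0.06. Among reductases that can form prostaglandin F2α or act on related substrates, AKR1B1 had 0.01, CBR1 0.06 and AKR1C1 -0.08. AKR1C1 has close paralogs whose RNA its probes may share. Of the genes of inactivation and uptake, the reductase PTGR1 had -0.02 and the prostaglandin transporter SLCO2A1 0.05. On single arrays PTGR1 had -0.51, 0.50, -0.40 and 0.34, following the dye of the treated RNA. The receptor of prostaglandin E2 encoded by PTGER3 had 0.04, and its other probe -0.04. The thromboxane synthase gene TBXAS1 and the prostaglandin F receptor gene PTGFR were well above background on 0 arrays and were not tested.

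On the leukotriene side, all 4 tested enzymes had ratios above 0, with a median of 0.06. The lipoxygenase gene ALOX15 had 0.07 (95% interval -0.08 to 0.23), and the glutathione transferase genes MGST1 and MGST3, relatives of ALOX5AP and PTGES in the MAPEG family, had 0.06 and 0.05. The value of MGST1 rests on 3 arrays. DPEP1, which trims leukotriene D4, had 0.02. The cysteinyl leukotriene receptor gene CYSLTR1 had -0.07 (95% interval -0.25 to 0.11). CYSLTR2, LTB4R2 and GGT1 were dim on all arrays, and ALOX5, LTA4H and LTC4S were not matched by accession and are not analysed here.

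**Figure D4:**
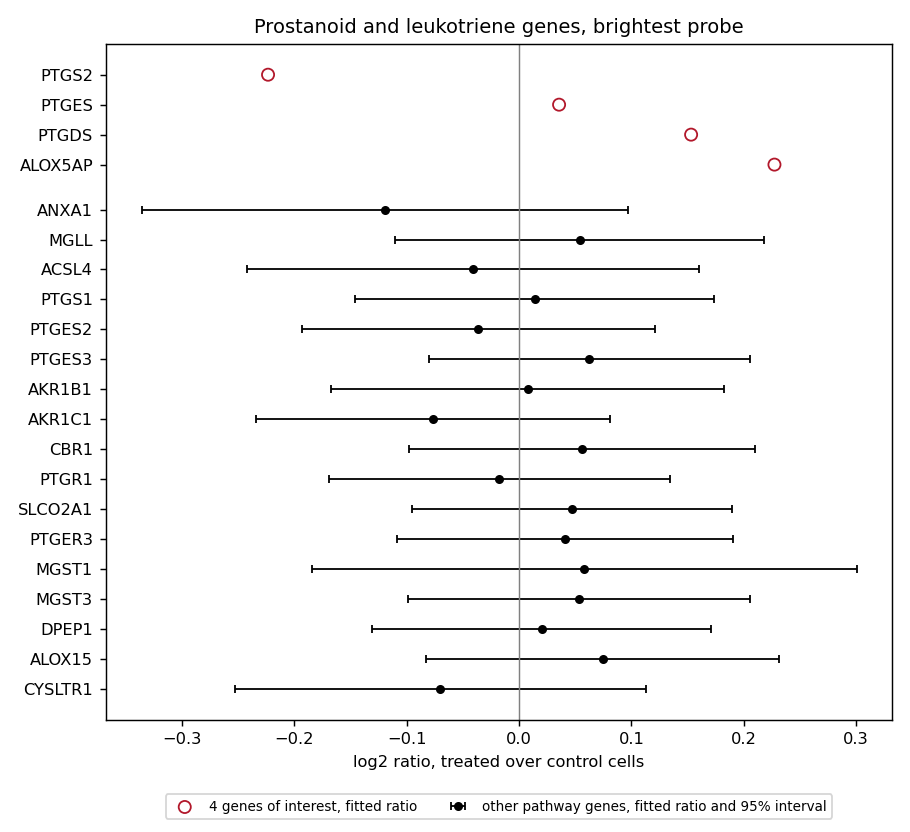
Fitted log2 ratio of treated over control cells for the 4 genes of interest (open circles, no interval) and 17 other tested genes of the pathway (points with 95% intervals), brightest probe of each. All 17 intervals include 0, and the points lie between -0.12 and 0.07.

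Among 1844 other named genes with 4 array values, those nearest to each gene of interest were listed by the root mean square difference of the 4 array ratios. These ratios include the effect of the dye, so a near gene may share the dye effect and not a response to treatment. Over tested probes the dye term had an SD of 0.17 and the fitted treatment ratio 0.08. The brightest probe stands for each gene, and for PTGS2 the dye term was 0.26 at that probe and -0.12 at probe 2. Nearest to PTGS2 (-0.22) were NUP153, a nuclear pore gene, at 0.09, CHUK, which encodes a kinase of the NF-kB pathway, at 0.11 and CXCL8, a chemokine gene, at 0.12. Their fitted ratios were -0.19, -0.13 and -0.26. On array 4, the lowest for each, CXCL8 had -0.65 and NUP153 -0.46. Nearest to ALOX5AP were IL16, a cytokine gene, at 0.10, CYBRD1, a ferric reductase gene, at 0.13 and TNNC1, a troponin gene, at 0.13. PTGDS had PCD1B, RAB27A and BPIFB2 nearest, at 0.09, 0.10 and 0.10. For PTGES the nearest were NRAP, HUS1 and SKIV2L, at 0.02, 0.03 and 0.03. The median distance over the candidates was 0.41 for PTGS2, 0.30 for ALOX5AP, 0.25 for PTGDS and 0.19 for PTGES.

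Markers of other cell types that could carry these genes were read beside them. Genes of fibroblasts, pericytes and meninges, the last a known source of PTGDS, had ratios of 0.01 (DCN, a matrix proteoglycan), 0.04 (ACTA2, smooth muscle actin) and 0.09 (SLC22A6, an organic anion transporter). None passed the threshold. These are the brightest probes, and the 4 tested probes of DCN were all above 0, from 0.01 to 0.19, the highest with an unadjusted p of 0.0218 and an adjusted p of 0.9999 (limma). Their summed intensity ran from 25128 to 37263 in treated and from 24782 to 31979 in control cells. COL1A1, COL1A2, COL3A1, LUM, PDGFRB and ALDH1A2 were not matched by accession. The part of these cells in the PTGDS ratio was not tested. The neutrophil markers S100A8, S100A9 and S100A12 had 0.01, -0.03 and 0.01, and FCER1G and KIT, markers of mast cells and other cells, had 0.02 and -0.08. Of the hormone cell genes, 7 of 9 had ratios below 0, with a median of -0.07 and none at an unadjusted p under 0.05 (limma). SOX2, a transcription factor of folliculostellate and stem cells, had 0.10 (95% interval -0.05 to 0.25). That was the highest ratio among the markers by their brightest probes. S100B, GFAP and ALDH1A1, listed for folliculostellate cells too, were not matched by accession. Of the posterior lobe and nervous tissue, MBP, a myelin gene, had 0.03, with 7 of 8 probes above 0, and OXT, the oxytocin gene, had 0.07.

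The direction of each value above rests on the channel labels. The deposited matrix of treated over control ratios follows the same labels. With arrays 2 and 4 turned, it lay within 0.01 of the ratio of processed signals for 99.99% of probes. The labelling protocol can be read as treated RNA in Cy5 on every array. Such a reading has no dye swap, so effects of the dye and of the treatment cannot then be told apart. Read that way, the ratio was 0.26 for PTGS2, 0.10 for PTGES, 0.06 for PTGDS and 0.007 for ALOX5AP. These are the brightest probes. PTGS2 then has the opposite sign at this probe, whereas probe 2 has -0.12, below 0 as before, and ALOX5AP lies near 0, with 0.16 and -0.06 at its other probes. After the smooth over position the values of the brightest probes were 0.27, 0.10, -0.02 and -0.12, with PTGDS and ALOX5AP below 0, and probe 2 of PTGS2 had 0.06.

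**Figure D5:**
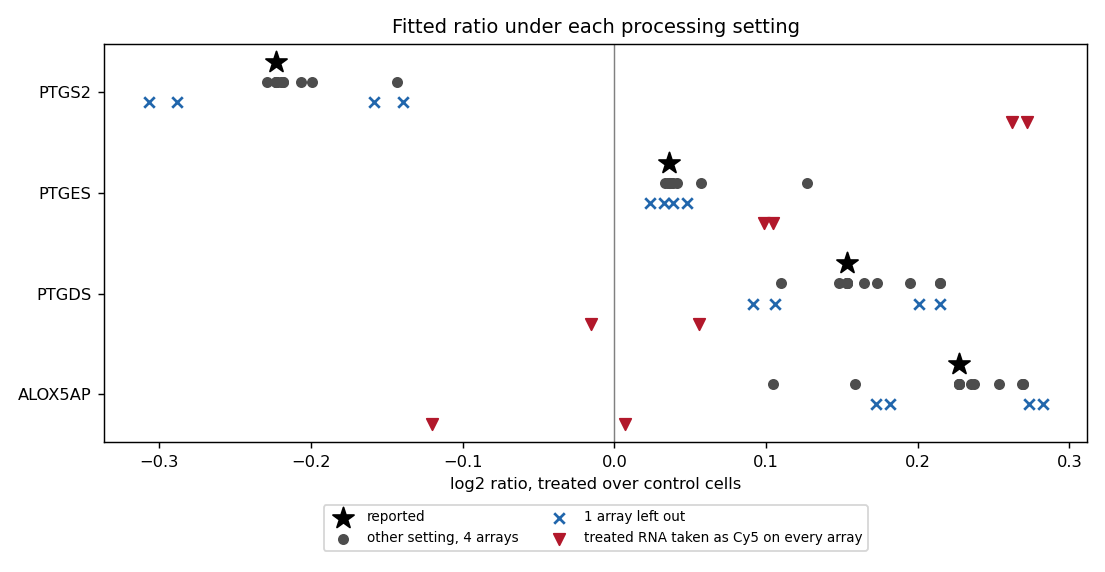
Fitted log2 ratio of the brightest probe of each gene (for 1 setting, the mean over probes) as reported and under each alternative. With the channel labels, PTGS2 runs from -0.31 to -0.14 and the other 3 genes stay above 0, and with the red channel read as treated throughout PTGS2 lies at 0.26 and 0.27.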

How the data were processed

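Scans of arrays of design 026440 were read by Feature Extraction 10.7.3.1 (Agilent), per the file headers. The deposited files hold linear intensity per spot (median foreground and local background), the software's processed signals and, as log10, its red over green ratio. On the log2 scale that ratio was within 0.01 of the ratio of processed signals for 81.6% to 87.2% of probes per array. Values of the deposited matrix are log2, within 0.01 of the ratio of processed signals for 99.99% of probes, turned to treated over control by the channel labels and not centred (medians -0.04, 0.08, 0.04 and -0.05). Further steps are not given in the sources used here.

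Intensities were corrected with normexp (offset 50) and loess-normalised array by array, control spots having weight 0 (limma 3.58.1, R 4.3.3). The offset draws ratios of dim probes towards 0. Intensities printed are also scaled between arrays (Aquantile). Spots with uneven background (939 to 1350 of 43803 per array) or outlier flags (29 to 45) were left out. Probes well above background in treated or control cells on at least 3 arrays, with 3 values, were tested. Limma fitted a dye term and a treatment term, two-sided, with Benjamini-Hochberg adjustment over 25912 probes. The fit was tested on simulated data with independent noise for each probe and array. Noise shared between probes was not simulated, so that test does not cover it. Treated and control RNA are paired by array. The number of arrays limits the precision.

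Symbols came from RefSeq annotation of Sscrofa11.1 by accession (5578 of 43603 probes), used for names only. A gene is its brightest tested probe. Named were the 4 genes with every probe, each tested gene of the pathway list, the 3 genes nearest to each, hormone genes and markers. Members, lists and steps were chosen with earlier results of these data known. Alternatives covered background, normalisation, filter, dye term, direction, probes of a gene and each array left out.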

Additional observations from a re-analysis of the deposited data

Results flagged for a closer look

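Of 25 sets of 4 array ratios, 2 had 1 array far from the other 3 by Dixon's gap. For independent normal values chance flags about 1 in 20, or 1.25 sets. The ratios here include the effect of the dye and some sets are probes of the same gene, so that rate may not hold. The second PTGS2 probe had -0.52 on array 3, against -0.10 to -0.02 on the others. After the smooth over array position its lowest values were -0.35 and -0.33, on arrays 3 and 4. CYSLTR1, a receptor of cysteinyl leukotrienes, had 0.25 on array 2, against -0.19 to -0.16 on the others.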

How the results depend on the processing

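Over 12 other settings with 4 arrays and the channel labels, the brightest probe of each gene (in 1 setting, the mean over probes) kept its sign. PTGS2 ran from -0.23 to -0.14, PTGES from 0.03 to 0.13, PTGDS from 0.11 to 0.21 and ALOX5AP from 0.10 to 0.27. Several settings could not change these values: separate channels, no dye term, and a stricter or no filter returned the reported ratios. The software's log ratio and the deposited matrix gave nearly the same values as each other. The third ALOX5AP probe fell to -0.004 with normexp on all spots. For the brightest probes, leaving out single arrays gave -0.31 to -0.14 for PTGS2, 0.02 to 0.05 for PTGES, 0.09 to 0.22 for PTGDS and 0.17 to 0.28 for ALOX5AP. With median centring in place of loess PTGES had 0.13 and the pathway median was 0.0777. Both moved by more than their residual SD about the dye and treatment terms (0.03 and 0.04). The SD of the PTGES array ratios, dye effect included, was 0.12. Over all tested probes the median ratio also rose with median centring, from 0.001 to 0.03. With the red channel read as treated throughout the values were 0.26 for PTGS2, 0.10 for PTGES and 0.00676 for ALOX5AP. With the smooth over position as well they were 0.27 and 0.10, with -0.0153 for PTGDS and -0.12 for ALOX5AP. The count of probes past the threshold, 0 here and in 12 of these settings, was then 2331 and, with the smooth, 193. In the pathway PTGR1 passed in the first of these readings (1 gene, ratio -0.44, limma adjusted p = 0.00737). In neither reading can effects of dye and treatment be told apart, so these are not calls of the treatment alone. With 1 array left out the count of probes ran from 0 to 832, and that of pathway genes from 0 to 1. Array 2 left out gave 725 probes, array 3 gave 1 and array 4 gave 832. In those fits 1 array alone carries its dye. The cause of these changes was not tested.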

Other observations

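The arrays differed from each other in the ratios of several of these genes, along a contrast that neither the dye nor the treatment term uses. The mean log2 ratio of arrays 1 and 2 minus that of arrays 3 and 4 was 0.30 and 0.27 for the PTGS2 probes, 0.22 for PTGDS and 0.20 for the brightest ALOX5AP probe. Between 92.0% and 97.4% of probes had a lower value of this contrast. It was -0.02 and 0.04 for PTGES and 0.009 and 0.02 for the other ALOX5AP probes. This contrast was picked after its values were seen.

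The gradient of red over green along the rows of the array ran the same way on all 4 arrays, in either dye orientation. The SD of the dye term over probes was 0.17 before the smooth over position and 0.13 after it, while the SD of the fitted treatment ratio was 0.08 before and 0.07 after. Array ratios of opposite dye orientation correlated across probes at -0.48 to -0.43 before and at -0.37 to -0.29 after the smooth. Arrays of the same orientation correlated at 0.57 (arrays 1 and 3) and 0.25 (arrays 2 and 4) before and at 0.13 to 0.38 after it. Probes are not independent replicates. With the red channel read as treated throughout, 2331 probes passed the threshold before and 193 after it. Effects of dye and treatment cannot be told apart in that reading.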
